A study of Mus musculus with 15 samples.

Results

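The 10 genes described here encode amino acid and peptide transporters of the intestinal epithelium or the heavy subunits that carry such transporters to the membrane. They were taken by gene symbol from the 45808 rows of the deposited cecal expression table, and all 10 were found. The members were Slc6a19, Slc6a14, Slc7a9, Slc3a1, Slc1a1, Slc1a5, Slc7a5, Slc7a8, Slc3a2 and Slc15a1. The study depleted the gut microbiome of wild-type C57BL/6 mice with antibiotics (antibiotic-induced microbiome depletion, AIMD) and measured messenger RNA in the cecum, the pouch between small and large intestine. Oral gavage every 12 h over 30 days gave 7 AIMD mice a mixture of neomycin, ampicillin, metronidazole, vancomycin and the antifungal amphotericin B, and gave water to 8 vehicle-treated mice. The labels state an age of 20 weeks for every mouse, the methods of the study a younger age at the start, and each sample was 1 emptied cecum, so that mucosa and muscle wall were measured together.

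Dietary protein reaches the epithelium as free amino acids and as short peptides. Slc15a1 carries dipeptides and tripeptides across the apical membrane, and Slc6a19 and Slc6a14 carry neutral amino acids with sodium, Slc6a14 also taking cationic ones. Slc7a9 is a light subunit that exchanges cystine and cationic amino acids at the apical membrane and needs the heavy subunit Slc3a1, and Slc3a2 is the corresponding heavy subunit of Slc7a5 and of the basolateral Slc7a8. Slc1a1 takes up glutamate and aspartate, and Slc1a5 exchanges glutamine and other small neutral amino acids. In the normal gut, most absorption of amino acids and peptides takes place in the small intestine, upstream of the cecum.

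Expression is given as FPKM, a read count scaled by gene length and by a depth for each library, after division by a size factor per mouse. The size factors were 1.0101 to 1.0104, so this division changed almost nothing between mice. The depth implied by the FPKM was not the total of recovered reads, as in Vehicle replicate 5, with 5162136 against 6486310. Groups were compared on log2(FPKM + 0.5) with limma, with p-values adjusted by the Benjamini-Hochberg method for 11971 tests. Because of the 0.5 added, a log2 fold change of a weakly expressed gene is smaller than the ratio of its FPKM. Reads recovered from the FPKM came to between 8679677 and 18108581 per AIMD mouse and between 4372415 and 14405944 per vehicle-treated mouse. In these whole ceca, fewer cells of a type and less RNA per cell cannot be told apart. Markers of large intestinal epithelium summed to at least 18780 FPKM in every mouse, those of small intestinal epithelium to 55.4 to 398 FPKM in AIMD mice and to 30.8 to 1982 in vehicle-treated mice. Single genes dominate these sums: Car1 alone was at 16510 FPKM or more in every mouse. The ileal gene Fabp6 was at 1701 in the mouse with the small intestinal sum of 1982. Of 8 large intestinal markers, 2 were higher and 3 lower in AIMD mice. Markers of epithelium in general summed to 6439 to 10130 FPKM in AIMD mice and to 5794 to 8094 in vehicle-treated mice. Of 11 such genes 3 were higher and 1 lower in AIMD mice.

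Of the 10 members, 9 passed the filter on low values and were tested, and Slc1a1 did not. Slc6a14 and Slc3a1 were higher in AIMD mice at an adjusted p under 0.05 (limma), and no member was lower. Over all genes tested, 19.4% were called higher and 16.6% lower, so 2 of 9 members called higher was a share near the background. No member had groups without overlap, a pattern that 5.26% of tested genes showed in the direction of AIMD mice and 3.3% in the other. The median log2 fold change of the 9 members was 0.56, and that of all genes tested was 0.01. The remaining members fell into a set of 3 that varied widely from mouse to mouse (Slc6a19, Slc7a9 and Slc15a1) and a set of 4 whose groups differed little or in which vehicle-treated mice had the higher median (Slc1a5, Slc3a2, Slc7a5 and Slc7a8).

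**Figure D1:**
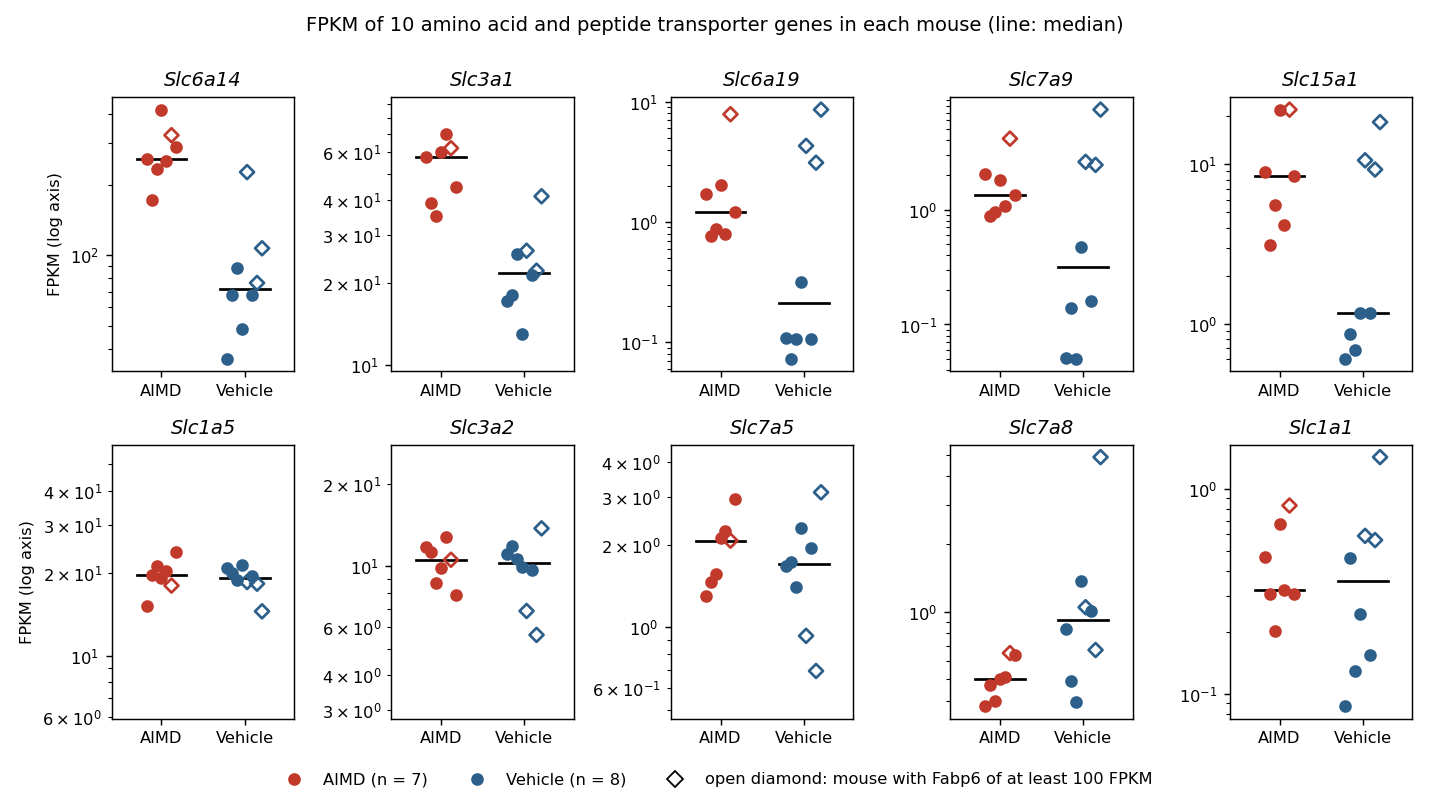
FPKM of each of the 10 genes in every mouse, on log axes, with AIMD mice in red, vehicle-treated mice in blue and the group median as a line. Open diamonds are the 4 mice with a Fabp6 level of at least 100 FPKM (AIMD replicate 6 and Vehicle replicates 5, 7 and 8), and the 3 of them that received vehicle hold the highest vehicle values of Slc6a19, Slc7a9 and Slc15a1.

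Slc6a14 (chromosome X, 21714896 to 21742355, plus strand, in GRCm38 as are all positions here) had the highest level of the members in both groups. It ran from 173 through a median of 257 to 418 FPKM in the AIMD mice, and from 36.3 through a median of 72.2 to 226 FPKM in the vehicle-treated mice. Slc6a14 stood above every vehicle-treated mouse in 6 of 7 AIMD mice, and Vehicle replicate 5, at 226, was the 1 vehicle-treated mouse inside the AIMD range, the next being Vehicle replicate 8 at 107. The means were 278 ± 77.5 (SD, n = 7) and 89.8 ± 59.4 (SD, n = 8), a ratio of 3.10. On the log2 scale the groups differed by 1.79 with a standard error of 0.30 (limma, adjusted p = 0.000251), and the difference lay between 1.63 and 2.01 with any 1 mouse left out. Of the summed FPKM of the 10 members, Slc6a14 held 73.5% in AIMD mice and 58.2% in the other group.

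Slc3a1 (chromosome 17, 85028376 to 85064236, plus strand), the heavy subunit of the cystine and cationic amino acid exchanger, came next in level. The AIMD mice ran from 34.9 through a median of 57.5 to 69.8 FPKM, and the vehicle-treated mice from 13.0 through a median of 21.8 to 41.4. Slc3a1 stood above every vehicle-treated mouse in 5 of 7 AIMD mice, and Vehicle replicate 8, at 41.4, was the only vehicle-treated mouse above the lowest AIMD value. The means were 52.6 ± 13.0 (SD, n = 7) and 23.1 ± 8.58 (SD, n = 8), a ratio of 2.28. The log2 difference was 1.20 with a standard error of 0.21 (limma, adjusted p = 0.00038), with 1.10 and 1.33 as the extremes when 1 mouse was left out. An exon of Prepl, a gene on the opposite strand, overlaps Slc3a1, and Prepl itself had a log2 fold change of -0.02 (95% interval -0.29 to 0.24).

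Slc6a14 and Slc3a1 were also compared on either side of a split by circadian clock genes. In AIMD replicates 1 to 3 and Vehicle replicates 1 to 4, the clock gene Arntl was at 12.4 FPKM or above and its target Dbp at 1.31 or below, whereas in the other mice Arntl was at most 9.80 and Dbp at least 5.13. On the first side, Slc6a14 was at 173 to 257 in AIMD mice and at 36.3 to 88.2 in vehicle-treated mice, and Slc3a1 at 34.9 to 57.5 and at 13.0 to 25.4. On the other side, Slc6a14 was at 252 to 418 and at 68.0 to 226, and Slc3a1 at 44.8 to 69.8 and at 21.4 to 41.4. Within each side, with 3 against 4 and 4 against 4 mice, the groups did not overlap for either gene, a pattern in the direction of AIMD mice that 16.1% of tested genes showed on the first side, 14.5% on the other and 8.75% on both. Of the 9 tested members, 5 showed it on the first side (these and Slc15a1, Slc6a19 and Slc7a9) and 2 on the other. All 4 mice with Fabp6 of at least 100 FPKM (AIMD replicate 6 and Vehicle replicates 5, 7 and 8) were on that other side. The split by clock genes is therefore not independent of the split by Fabp6 described below. The labels give no time of collection, and no test was made within the sides.

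The DNA before the start sites of the 2 genes that were called, and of the peptide transporter Slc15a1, which varied widely, is shown so that the letters before these genes can be compared. RefSeq (GRCm38.p6) gave a promoter for 8 of the 10 members, and Slc1a5 and Slc7a5 had none in the table. The 250 bases before each start site were searched on both strands for TTTATG (CDX), CAAAGTCCA (HNF4), TTATGTAA (the clock D-box), TGATGNAA (the amino acid response element), TGANTCA (AP-1) and TATAAA (the TATA box), and matches are in capitals, 5′ to 3′ on the strand of the gene. Slc6a14 is from chrX:21714650-21714895 on the plus strand (without the last 4 of the 250 bases, which lie inside the gene in GENCODE), Slc3a1 from chr17:85028097-85028346 on the plus strand, and Slc15a1 from chr14:121505255-121505504 on the minus strand.
Slc6a14: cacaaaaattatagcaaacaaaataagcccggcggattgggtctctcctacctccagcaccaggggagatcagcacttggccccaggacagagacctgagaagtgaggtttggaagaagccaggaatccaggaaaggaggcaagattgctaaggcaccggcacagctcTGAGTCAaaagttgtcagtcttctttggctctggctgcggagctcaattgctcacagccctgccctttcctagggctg
Slc3a1: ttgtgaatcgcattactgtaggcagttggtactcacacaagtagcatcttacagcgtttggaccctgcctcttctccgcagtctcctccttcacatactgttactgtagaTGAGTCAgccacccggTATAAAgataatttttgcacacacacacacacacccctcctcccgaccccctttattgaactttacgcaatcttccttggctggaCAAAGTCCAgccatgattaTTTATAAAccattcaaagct
Slc15a1: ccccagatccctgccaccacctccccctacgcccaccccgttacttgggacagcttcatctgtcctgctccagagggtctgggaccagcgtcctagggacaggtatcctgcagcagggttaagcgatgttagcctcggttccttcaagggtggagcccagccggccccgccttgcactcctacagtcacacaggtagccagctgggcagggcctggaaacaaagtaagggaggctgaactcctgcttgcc
The windows of Slc6a14 and Slc3a1 held the same 7 letters of AP-1, TGAGTCA, at bases -82 to -76 and -140 to -134 from the start site. An AP-1 match stood in 6.75% of the 32851 promoter windows of this length. Slc3a1 also held the HNF4 letters at -39 to -31, which stood in 0.384% of the windows, and TATAAA at -124 to -119 and at -18 to -13, where the match overlaps a match on the other strand, letters found in 12.4% of windows. Slc15a1 held none of the letters searched, nor did the windows of Slc6a19, Slc7a9, Slc7a8, Slc3a2 and Slc1a1. The windows of Slc6a19, Slc7a9 and Slc3a2 lie wholly inside the GENCODE gene, and those of Slc7a8 and Slc1a1 by 60 and 86 of their 250 bases, so they do not describe the DNA before the GENCODE start of these genes. These matches describe the letters in the window and not a bound factor.

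**Figure D2:**
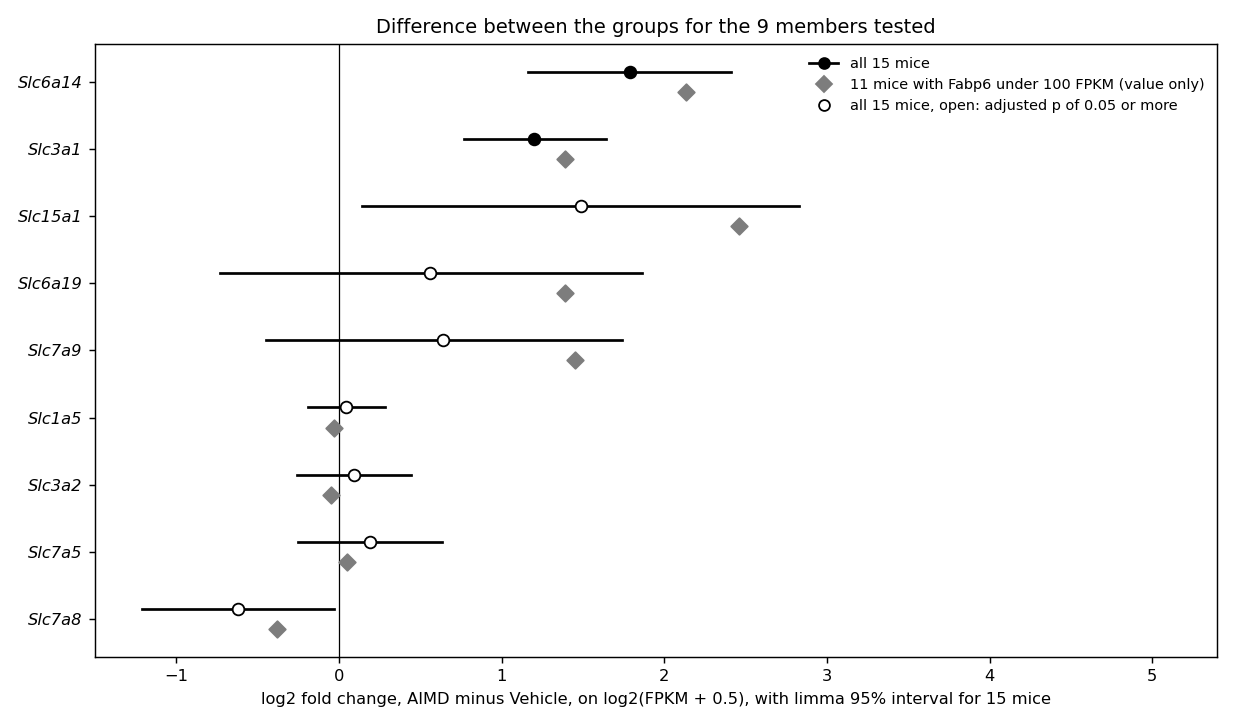
Log2 fold change of each tested member, AIMD minus vehicle-treated mice on log2(FPKM + 0.5), for all 15 mice as black circles with the limma 95% interval (filled where the adjusted p was under 0.05). Grey diamonds give the value alone in the 11 mice with Fabp6 under 100 FPKM, a selection that takes away the highest vehicle values of Slc15a1, Slc6a19 and Slc7a9, whose diamonds stand at 2.46, 1.39 and 1.45.

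Slc15a1 (chromosome 14, 121459621 to 121505252, minus strand), the apical peptide transporter, had a higher mean in AIMD mice but did not pass the threshold. The values ran from 3.09 through a median of 8.36 to 21.9 FPKM in the AIMD mice, and in the vehicle-treated mice from 0.604 through a median of 1.16 to 18.3. The vehicle-treated mice were split, with 5 mice at 1.17 or below, under every AIMD mouse, and Vehicle replicates 5, 7 and 8 at 10.6, 9.24 and 18.3. The means were 10.6 ± 8.04 (SD, n = 7) and 5.33 ± 6.66 (SD, n = 8). The groups differed by 1.49 on the log2 scale, with a 95% interval of 0.14 to 2.83 (standard error 0.64, limma adjusted p = 0.0787). The call depended on the fit. With all 15 mice, Slc15a1 passed with a score of clock genes in the fit (1.49, limma adjusted p = 0.0187), with an epithelial marker score as a covariate (2.34, limma adjusted p = 0.0218) and with limma voom on the recovered reads (2.06, limma voom adjusted p = 0.0161). It passed without Vehicle replicate 8, at 1.85 (limma adjusted p = 0.0182), a value that the replicate block shares (limma adjusted p = 0.0212), and without Vehicle replicate 5, at 1.74 (limma adjusted p = 0.0427). With the exact rank-sum test it did not (adjusted p = 0.256). The clock gene score is not independent of Fabp6, because the 4 mice with Fabp6 of at least 100 FPKM all lie on its low Arntl side.

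Slc6a19 (chromosome 13, 73679745 to 73704865, minus strand), the sodium-dependent carrier of neutral amino acids, was low and split in the same way. AIMD mice ran from 0.758 through a median of 1.20 to 7.86 FPKM, and the vehicle-treated mice from 0.0731 through a median of 0.214 to 8.59. The 3 vehicle-treated mice with 4.29, 3.11 and 8.59 FPKM were again replicates 5, 7 and 8, the other 5 were at 0.32 or below, and AIMD replicate 6 held the highest AIMD value. Its log2 difference of 0.56 had a 95% interval of -0.73 to 1.86 (standard error 0.62, limma adjusted p = 0.502). The size of the difference was not stable: it was 0.23 without AIMD replicate 6, 0.38 to 0.45 without any 1 of Vehicle replicates 1 to 4 and 6, and 0.95 without Vehicle replicate 8. With limma voom on the recovered reads it was 1.94 (limma voom adjusted p = 0.0673). Vehicle replicates 1, 2, 3 and 6 rest on 4 or 5 reads each, so the level of Slc6a19 in them is known only roughly.

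Slc7a9 (chromosome 7, 35448796 to 35466036, plus strand), the light subunit that pairs with Slc3a1, followed Slc6a19 from mouse to mouse. Levels ran from 0.871 through a median of 1.33 to 4.15 FPKM in the AIMD mice, and in the vehicle-treated mice from 0.0504 through a median of 0.315 to 7.42. Vehicle replicates 5, 7 and 8 were at 2.60, 2.45 and 7.42, and the other 5 were at 0.47 or below, with a single read in Vehicle replicates 1 and 3. A log2 difference of 0.64 had a 95% interval of -0.45 to 1.74 (standard error 0.52, limma adjusted p = 0.352), and was 1.01 without Vehicle replicate 8. With limma voom on the recovered reads, which works on a log scale without the offset of 0.5 FPKM, the value was 1.89 and passed the threshold (limma voom adjusted p = 0.041). Slc15a1 passed in that fit too, which makes 4 members, where 19.6% of genes were called higher.

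Slc6a19, Slc7a9 and Slc15a1 were for the most part high and low together among mice of the same group. An exception was AIMD replicate 4, where Slc15a1 was at 21.9 FPKM, as in AIMD replicate 6. In that mouse Slc6a19 was at 2.04, Slc7a9 at 1.79 and Fabp6 at 10.9. Over 15 mice and with group means taken out, genes most like Slc6a19 included Slc7a9 (Pearson r = 0.98) and Mttp, which loads lipid onto lipoproteins (0.979). For Slc15a1 the first genes were Slc6a19 (0.955) and Slc7a9 (0.948). These coefficients describe libraries that share their depth and tissue. They may rest largely on the 4 mice in which all these genes were high, which was not tested. In the same 4 mice Fabp6, the bile acid binding protein of ileal enterocytes, stood at 223 FPKM in AIMD replicate 6 and at 1030, 1052 and 1701 in Vehicle replicates 5, 7 and 8, while no other mouse exceeded 69.1. Of 12 markers of small intestinal epithelium, Fabp6 among them, 8 were tested and 2 were higher in AIMD mice, 7 of the 8 had a positive difference, and none was at 0 in every mouse. The log2 fold changes of the tested markers ran from that value to 1.91 (Mmp7), with a median of 0.55. Whether these ceca carried tissue of the adjoining ileum was not tested.

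**Figure D3:**
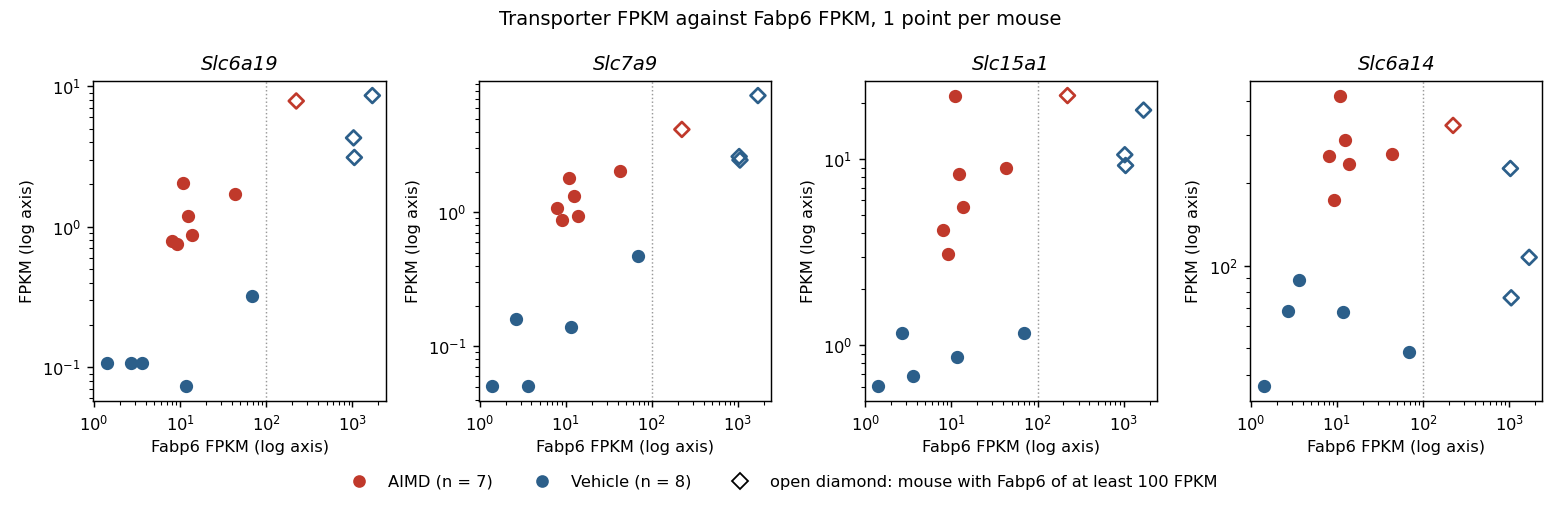
FPKM of Slc6a19, Slc7a9, Slc15a1 and Slc6a14 against the FPKM of Fabp6, both on log axes, with 1 point per mouse and a dotted line at 100 FPKM. Left of the line, the 6 AIMD mice are above the 5 vehicle-treated mice in each panel, and right of it AIMD replicate 6 lies within the range of the vehicle-treated mice for Slc6a19 and Slc7a9.

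In the 11 mice with Fabp6 under 100 FPKM, the 6 AIMD mice were above the 5 vehicle-treated mice for all 3 genes. Slc15a1 was at 3.09 to 21.9 FPKM in AIMD mice and at 0.604 to 1.17 in vehicle-treated mice. Slc6a19 was at 0.758 to 2.04 and at 0.0731 to 0.32, and Slc7a9 at 0.871 to 2.03 and at 0.0504 to 0.47. Slc6a14 and Slc3a1 did not overlap in these mice either, which makes 5 of the 9 tested members, where 9.02% of tested genes showed AIMD mice above vehicle-treated mice without overlap. Here the log2 difference was 2.46 for Slc15a1, 1.39 for Slc6a19 and 1.45 for Slc7a9. The cut on Fabp6 was chosen after the data were seen, and because Fabp6 and these genes are high in the same mice it also takes away their highest vehicle values, so these values and the count of 5 are a description and no test. With the log2 level of Fabp6 as a covariate in all 15 mice, also chosen after the data were seen, Slc6a14, Slc3a1 and these 3 genes were called higher, where 19.9% of genes were. The differences were 1.97 for Slc15a1, 1.06 for Slc6a19 and 1.07 for Slc7a9. Because Fabp6 is high in the same mice as these 3 genes, the covariate takes up part of their spread within groups. The standard error of Slc15a1 was 0.33 with it and 0.64 without. The calls of these 3 genes in this fit are therefore also a description and no test. Some markers of small intestinal epithelium differed in the same direction in the 11 mice. Of the 12, Apoa4 (1.5 to 3.62 FPKM in AIMD mice, 0 to 0.147 in vehicle-treated mice), Apoc3 (0.325 to 1.19, 0 to 0.266) and Mmp7 (0.83 to 4.56, 0 to 0.0833) were higher in AIMD mice without overlap, and the other 9 overlapped. Among those that overlapped were the apolipoprotein Apoa1, at 5.14 to 47.5 and 0.172 to 7.34, and Fabp6 itself, at 8.00 to 43.0 and 1.41 to 69.1. The part of these markers in the differences of the transporter genes was not tested.

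Slc1a5 (chromosome 7, 16781340 to 16798274, plus strand), the glutamine exchanger, had nearly the same level in both groups. In the AIMD mice FPKM ran from 15.2 through a median of 19.7 to 23.9, and in the vehicle-treated mice from 14.5 through a median of 19.2 to 21.5. The groups overlapped almost wholly, and the log2 difference of 0.04 had a 95% interval of -0.19 to 0.28 (standard error 0.11, limma adjusted p = 0.781). Its sign turned in some alternatives, to -0.03 at the lowest.

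Slc3a2 (chromosome 19, 8706882 to 8723369, minus strand), the heavy subunit of Slc7a5 and Slc7a8, was likewise close in level. The range was 7.87 to 12.8 FPKM around a median of 10.6 in the AIMD mice, and in the vehicle-treated mice 5.62 to 13.8 around a median of 10.3. Vehicle-treated mice held both the lowest and the highest value. Its log2 difference was 0.09 with a 95% interval of -0.26 to 0.44 (standard error 0.17, limma adjusted p = 0.691), and it was -0.19 with an epithelial marker score as a covariate. Of the 50-base windows of its transcripts, 3.42% also occur in other genes, so a small part of its reads may be shared.

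Slc7a5 (chromosome 8, 121881150 to 121907694, minus strand), the light subunit for large neutral amino acids, was low in both groups. Values ran from 1.30 through a median of 2.07 to 2.94 FPKM in the AIMD mice, and in the vehicle-treated mice from 0.693 through a median of 1.70 to 3.11. They differed by 0.19 on the log2 scale, with a 95% interval of -0.25 to 0.63 (standard error 0.21, limma adjusted p = 0.51). Leaving out single mice moved it to 0.07 (Vehicle replicate 7), 0.10 (AIMD replicate 7), 0.11 (Vehicle replicate 5) or 0.30 (Vehicle replicate 8), with no call. Among AIMD mice the 4 on the side of low Arntl were at 2.07 to 2.94 and the 3 on the side of high Arntl at 1.30 to 1.56, whereas the corresponding vehicle-treated mice overlapped, at 0.693 to 3.11 and 1.41 to 2.30.

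Slc7a8 (chromosome 14, 54722209 to 54781946, minus strand), the basolateral light subunit, was the tested member with a negative difference. AIMD mice lay between 0.379 and 0.654 FPKM with a median of 0.501, and the vehicle-treated mice ran from 0.398 through a median of 0.919 to 4.88. Above every AIMD mouse stood 6 of 8 vehicle-treated mice, Vehicle replicate 8 farthest at 4.88, and Vehicle replicates 2 and 3 lay inside the AIMD range. The log2 difference was -0.62 with a 95% interval of -1.21 to -0.03 (standard error 0.28, limma adjusted p = 0.0911), and without Vehicle replicate 8 it was -0.37. Markers of neurons and glia differed between the groups in the same direction, and all 3 that were tested were lower in AIMD mice, where 16.6% of all genes tested were. Their summed FPKM was 2.13 to 3.22 in AIMD mice and 3.16 to 54.2 in vehicle-treated mice, with the highest sum in Vehicle replicate 8. Mouse by mouse the match was incomplete: Vehicle replicate 2 had a sum of 11.3, above every AIMD mouse, with Slc7a8 at 0.49. Of 6 smooth muscle markers 1 was called lower, but none had a positive difference, and their median log2 fold change was -0.8. Their sum, at 211 to 804.5 in AIMD mice and 511.8 to 2988 in vehicle-treated mice, was also highest in Vehicle replicate 8. The part of these markers in the difference of Slc7a8 was not tested. The genes most like Slc7a8 over 15 mice were Cdr2 (Pearson r = 0.964), Rbm24 (0.96) and Serpine2 (0.958).

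Slc1a1 (chromosome 19, 28835049 to 28913960, plus strand), the glutamate transporter, was the member that did not pass the filter on low values, with 0.5 FPKM or more in 5 mice where 7 were required. AIMD mice were at 0.203 to 0.83 FPKM with a median of 0.323, and vehicle-treated mice at 0.0873 to 1.43 with a median of 0.354, on 4 to 68 reads per mouse. The vehicle-treated mice spanned the whole AIMD range, and without the filter the log2 fold change was 0.05 (limma adjusted p = 0.893). An exon of 4430402I18Rik on the opposite strand overlaps this gene.

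The order of median levels was alike at the top and not at the bottom. In both groups it began with Slc6a14, Slc3a1, Slc1a5 and Slc3a2. Slc6a14 exceeded Slc3a1 in every mouse, and Slc3a1 exceeded Slc1a5 in 7 of 7 AIMD mice but in 5 of 8 vehicle-treated mice. Slc15a1 followed in AIMD mice and was above Slc3a2 in 3 of 7 of them, whereas in vehicle-treated mice Slc7a5 came before it and was the higher in 5 of 8. Slc6a19 and Slc7a9 changed places between mice in both groups, Slc7a9 being the higher in 5 of 7 AIMD mice and in 3 of 8 vehicle-treated mice.

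The levels of subunit partners were far from equal. The heavy subunit gene Slc3a1 had 14.9 to 64.3 times the FPKM of its light partner Slc7a9 in AIMD mice (median 33.7) and 5.57 to 503 times in vehicle-treated mice (median 79.3), where the largest ratios rest on 1 read of Slc7a9. Slc3a2 had 2.68 to 9.03 times the FPKM of Slc7a5 in AIMD mice and 4.32 to 8.11 times in vehicle-treated mice, so that the vehicle range lay inside the AIMD range. Slc3a2 had 12.3 to 30.9 times the FPKM of Slc7a8 in AIMD mice and 2.82 to 26.7 times in vehicle-treated mice. The log2 ratio of the light subunits Slc7a5 and Slc7a8 was 1.64 to 2.20 in AIMD mice and -0.65 to 1.83 in vehicle-treated mice, where 6 of 8 mice lay below every AIMD mouse. The log2 ratio of the heavy subunits Slc3a1 and Slc3a2 was 1.79 to 2.60 in AIMD mice and 0.38 to 1.98 in vehicle-treated mice, with Vehicle replicates 5 and 7 inside the AIMD range. No test was made on these ratios.

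**Figure D4:**
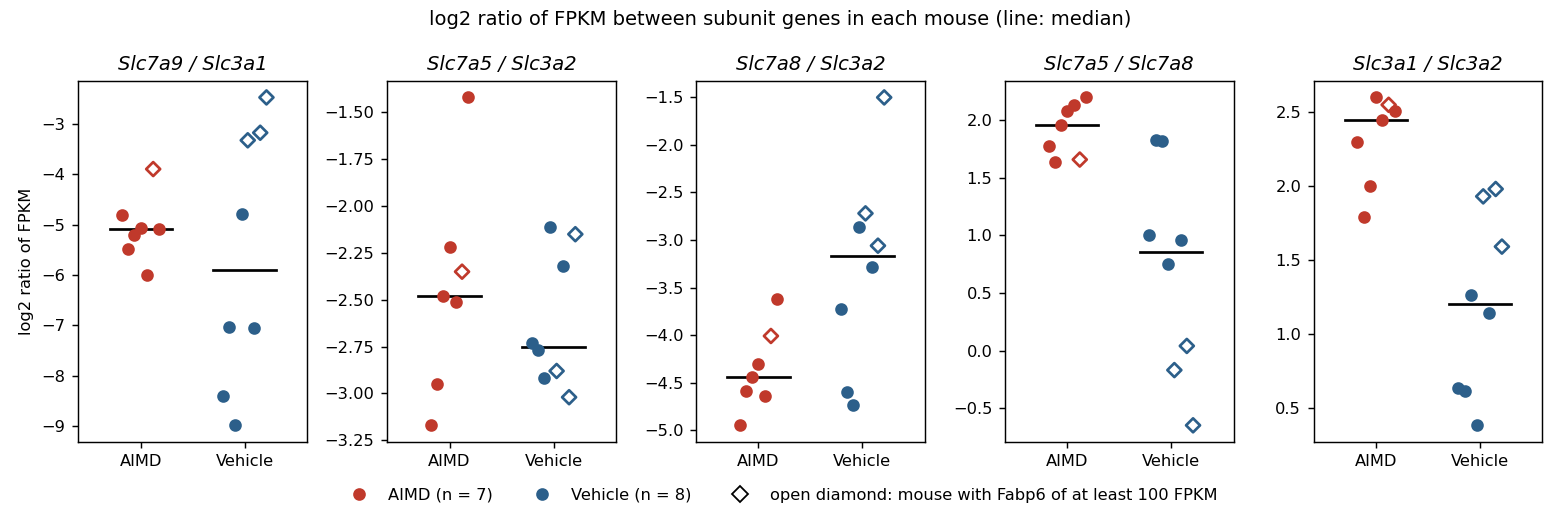
Log2 ratio of FPKM between genes of subunits, in each mouse, with the group median as a line and open diamonds for the 4 mice with Fabp6 of at least 100 FPKM. The ratio of Slc7a9 to Slc3a1 spans -6.01 to -3.90 in AIMD mice and -8.98 to -2.48 in vehicle-treated mice, and the ratio of Slc7a5 to Slc7a8 is at least 1.64 in AIMD mice.

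Among 48 other amino acid and peptide transporters and their accessory proteins, 20 were tested, 3 were higher in AIMD mice, 2 were lower and 15 did not pass the threshold, with a median log2 fold change of 0.19. The shares over all genes tested were 19.4% higher and 16.6% lower. Slc7a7, the light subunit that releases cationic amino acids on the basolateral side with Slc3a2, rose from 5.23 ± 1.46 (SD, n = 8) to 9.01 ± 0.866 FPKM (SD, n = 7), a log2 fold change of 0.77 (limma adjusted p = 0.00081). All 7 AIMD mice, at 7.46 or above, exceeded all 8 vehicle-treated mice, at 7.35 or below. Slc6a6, the taurine transporter, rose by a log2 fold change of 0.70 (limma adjusted p = 0.0278) and Slc43a3, a purine base transporter of a family of amino acid carriers, by 0.46 (limma adjusted p = 0.0388), and they lost the call in 7 and 14 of the alternatives. Slc15a4, the endolysosomal carrier of histidine and peptides, fell without overlap of the groups, from 7.18 to 12.1 FPKM in vehicle-treated mice to 3.62 to 5.04 in AIMD mice (log2 fold change -0.93, limma adjusted p = 2.04e-05). Slc7a6, another cationic light subunit partner of Slc3a2, fell from a mean of 2.05 to 1.16 FPKM (log2 fold change -0.60, limma adjusted p = 0.0019). Tmem27, an accessory protein of such transporters in the kidney, did not exceed 0.154 FPKM in any mouse and was not tested.

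Of 13 apical and cytosolic peptidases, which release the substrates of these transporters, 12 were tested, 3 were higher and 2 lower in AIMD mice, and the median log2 fold change was 0.29. Among all genes tested, 19.4% were called higher and 16.6% lower. Mep1b, the beta subunit of the brush border protease meprin, had 142 to 236 FPKM in AIMD mice and 56.9 to 114 in vehicle-treated mice, without overlap (log2 fold change 1.28, limma adjusted p = 2.09e-05). Its partner subunit gene Mep1a rose by a log2 fold change of 0.37 (limma adjusted p = 0.0343), and Cndp2, a cytosolic dipeptidase, by 0.76 (limma adjusted p = 0.00206). Ggt1, which cleaves gamma-glutamyl peptides such as glutathione at the cell surface, fell from 2.22 to 8.89 FPKM in vehicle-treated mice to 0.443 to 1.59 in AIMD mice (log2 fold change -1.90, limma adjusted p = 1.12e-05). Pepd, the prolidase, had a log2 fold change of -0.46 (limma adjusted p = 0.0473), and the calls of Mep1a and Pepd were lost in 13 and 16 of the alternatives.

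Of 20 genes of the transcriptional response to amino acid shortage, a list that holds Slc3a2 and Slc7a5, 16 were tested, 6 were higher and 1 lower in AIMD mice, with a median log2 fold change of 0.20. For comparison, 19.4% of all genes tested were called higher and 16.6% lower. Asns, asparagine synthetase, was at 8.51 to 14.1 FPKM in AIMD mice and at 2.52 to 6.29 in vehicle-treated mice, without overlap (log2 fold change 1.29, limma adjusted p = 3.03e-05). The stress response factors Ddit3 and Atf3 rose by log2 fold changes of 1.11 (limma adjusted p = 0.00153) and 0.99 (limma adjusted p = 0.000175). Cebpb, a factor of the same family, fell by 1.42 on the log2 scale (limma adjusted p = 0.00155). The transporter genes of the list, Slc3a2 and Slc7a5, did not pass the threshold, nor did Atf4, which encodes the main factor of this response, at -0.25 (95% interval -0.51 to 0.00).

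**Figure D5:**
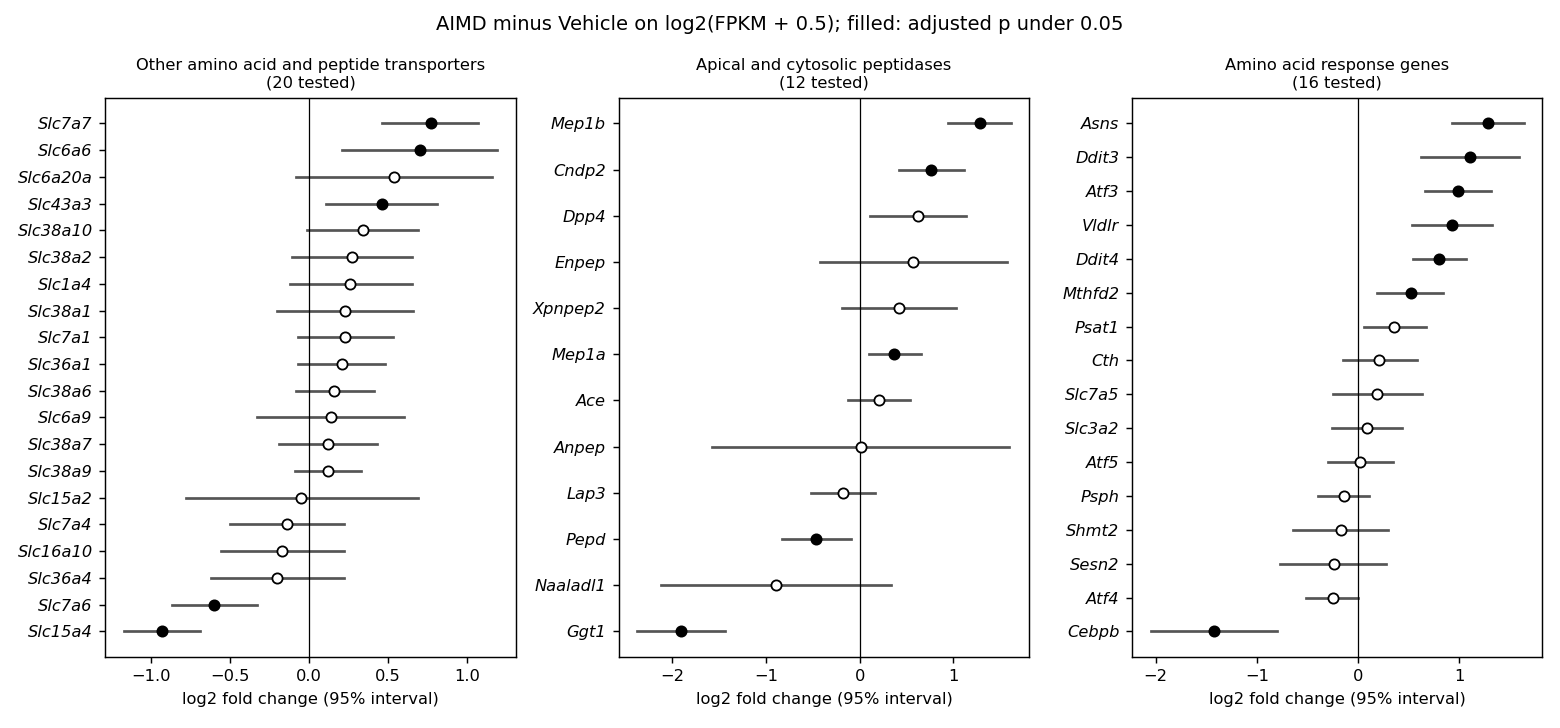
Log2 fold change, AIMD minus vehicle-treated mice, with limma 95% intervals for the tested genes of 3 lists, filled where the adjusted p was under 0.05. Slc7a7 and Slc15a4 mark the ends of the other transporters, at 0.77 and -0.93, Mep1b and Ggt1 those of the peptidases, at 1.28 and -1.90, and Asns and Cebpb those of the response genes, at 1.29 and -1.42.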

How the data were processed

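Stranded libraries of cecal poly-A RNA from 15 mice were sequenced as single reads of 50 bases. The authors aligned them with STAR to GRCm38, summed reads over genes with featureCounts, and deposited FPKM of every mouse. How counts became FPKM, and whether counting used strand, is not given in the sources used here. The authors' own tests used DESeq2 and took account of when each mouse was killed, a time that the labels do not give.

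Rows with a repeated symbol (4) were left out. FPKM were scaled by median-of-ratios size factors, which were nearly equal in all mice. A gene was tested if 7 or more mice had 0.5 FPKM or more. The 7 AIMD and 8 vehicle-treated mice were compared on log2(FPKM + 0.5) with limma 3.58.1 (trend, R 4.3.3), two-sided, with 0.05 as the threshold of the adjusted p. The labels number replicates, each taken as 1 mouse, and the p-values set the difference between groups against the spread between mice within groups. The study housed several mice per cage, and cage was not part of any fit. Whole reads (within 0.05) could be recovered from the FPKM of 24278 of 24279 genes above 0. They gave the depth of each mouse, and few reads mean low precision. The rule for names took all 10 members, the called genes of each list with the largest change in each direction, Tmem27, and the 3 genes most like a member, and 1 gene of these is not reported here. Alternatives were other scalings, pseudocounts and filters, clock and epithelial covariates, a replicate block, an exact rank-sum test, voom and leaving out each mouse, and 2 on Fabp6 were added after seeing the values. The main limma fit, the exact rank-sum test and the recovery of reads were tried on simulated data first, and the other alternatives were not. The members and lists were chosen with earlier results of these data known.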

Additional observations from a re-analysis of the deposited data

Results flagged for a closer look

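In 3 cases the highest or lowest mouse of a group stood apart from the others by more than Dixon's 95% limit on log2(FPKM + 0.5), and chance alone marks about 1 in 20 groups. Slc6a19 in AIMD replicate 6, at 7.86 FPKM, left a gap of 0.628 of the range of its group. Slc1a5 in Vehicle replicate 8, at 14.5 FPKM, left a gap of 0.594 of the range below the other vehicle-treated mice. Slc7a8 in Vehicle replicate 8, at 4.88 FPKM, left a gap of 0.591 of the range above them. Vehicle replicate 8 also had the highest sum of smooth muscle markers and the highest sum of neuron and glia markers.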

How the results depend on the processing

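Slc6a14 and Slc3a1 were called higher in all 28 alternatives. These are not independent checks, since most share nearly all of their data. The fit without further size factors could hardly differ from the main one, because those factors were nearly equal. The members called higher numbered 4 with voom on recovered reads, where 19.6% of all genes tested were called higher. They numbered 5 without the mice of high Fabp6 (16.1% of genes), a selection that takes away the highest vehicle values. With the Fabp6 covariate they numbered 5 as well (19.9% of genes). Both Fabp6 settings were chosen after the data were seen, and their calls of Slc15a1, Slc6a19 and Slc7a9 are a description and no test. With 1 mouse left out they numbered 2 to 3, where 1930 to 2407 of 11971 genes were called higher. Other transporters called higher numbered 5 with the replicate block, 1 with the exact rank-sum test, and 1 to 5 with 1 mouse left out (1 without any of AIMD replicates 4 to 7, 5 without Vehicle replicate 8). Peptidases called higher numbered 5 with the replicate block, without the mice of high Fabp6 and with the Fabp6 covariate, and 2 to 5 with 1 mouse left out (5 without Vehicle replicate 8). Peptidases called lower numbered 1 without the filter, with the epithelium score, with the replicate block, with the exact rank-sum test, without the mice of high Fabp6 and with the Fabp6 covariate, and 1 to 2 with 1 mouse left out (1, Ggt1, in 10 of the 15 cases). The cause of these shifts was not tested. Signs turned for Slc1a5 (-0.01 with the replicate block, -0.03 without the mice of high Fabp6, -0.01 to 0.10 with 1 mouse left out) and for Slc3a2 (-0.19 with the epithelium score, -0.05 without the mice of high Fabp6, -0.01 to 0.16 with 1 mouse left out). Slc15a1 was called in 8 alternatives, Slc7a9 in 3 and Slc6a19 in 2, in each case with both Fabp6 settings among them.

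The replicate numbers did not pair the mice: correlations of the deviations of same-numbered mice ran from -0.35 to 0.432, and 1 of 7 AIMD mice correlated best with its own number. The replicate block leaves Vehicle replicate 8 without a partner, so its log2 fold changes equal those without that mouse. With the block, 3 members were called higher. Depth limits Slc6a19, Slc7a9 and Slc1a1, which rest on 5 reads or fewer in some vehicle-treated mice.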

Other observations

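Slc15a2, the peptide transporter related to Slc15a1, was nearly absent in 1 mouse of each group, an observation made after the values were seen. It was at 0 FPKM, on 0 reads, in AIMD replicate 5 and at 0.0411 FPKM, on 2 reads, in Vehicle replicate 7. The other 13 mice were at 0.716 to 2.54 FPKM on 36 to 184 reads. The log2 fold change between the groups was -0.05 (limma adjusted p = 0.927), and no cause of these low values was tested.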
